A study of Mus musculus with 29 samples.

Results

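The genes described here are 10 of the nuclear genes that copy, package and transcribe mitochondrial DNA or control the genes that do. They were named by function, but with earlier results of these data known. They are Tfam, Polrmt, Tfb2m, Tfb1m, Polg, Polg2, Ssbp1, Nrf1, Gabpa and Ppargc1b. All 10 were found among the 21819 genes listed in the B cell files and the 21675 genes listed in the fibroblast files. All 10 also passed the filter on low values in every replicated comparison, Ppargc1b only through the treated libraries in fibroblasts, as described with its values. Transcripts encoded by mitochondrial DNA itself were not analysed here.

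Mitochondrial DNA is a small circular genome whose transcription and copying depend entirely on proteins made from nuclear genes. The RNA polymerase POLRMT is brought to the promoters by TFAM, which also packs the DNA into nucleoids, and TFB2M opens the DNA strands for it. TFB1M, a relative of TFB2M, methylates the RNA of the small mitochondrial ribosomal subunit. Copying is carried out by the polymerase POLG with its accessory subunit POLG2, while SSBP1 coats the exposed single strands. NRF1 (nuclear respiratory factor 1) and GABPA (the DNA-binding subunit of the GA-binding protein, an ETS family factor) bind the promoters of many nuclear genes for mitochondrial proteins, and PPARGC1B is a coactivator of such factors. Lymphocytes are known to enlarge their mitochondrial content when they are activated.

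The study measured RNA in 29 libraries under changes in the growth-promoting transcription factor Myc. Tumour cells (3 libraries, Tg_lymphnode) and pretumoral splenic B cells (4 libraries, Tg_spleen) carried the Eu-myc transgene, in which the immunoglobulin heavy chain enhancer drives Myc in B lineage cells, and 4 libraries were wild-type splenic B cells (WT_spleen). All were from C57BL/6 mice. The spleen cells came from mice 6 to 8 weeks old and were enriched with B220 beads, whereas the tumour suspensions were strained lymph nodes with no purification, and the age of those mice is not given in the sources used here. The fibroblasts were 3T9 cells, an immortalised culture from E13.5 embryos of mixed strain with floxed c-myc alleles (c-mycflox/flox), infected with MycER, a Myc fusion protein that 4-hydroxytamoxifen (OHT) activates. Total RNA was taken after ethanol (0 h) and after 4, 8 and 16 h of 400 nM OHT, 4 libraries each. Newly made RNA was taken at 0 and 4 h, 1 library each, after 10 min of labelling with 300 µM 4-thiouridine (4sU). MycER and the floxed alleles are shared by all fibroblast libraries, and no fibroblast library without MycER was analysed here. Nothing in the labels says that replicates came from separate animals or cultures, so p-values measure only the spread between these libraries.

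Values are FPKM as deposited, and what the authors divided by to reach that scale is not given in the sources used here. As a rough estimate from the spacing of the lowest values, which only part of the values follow, 8.38 to 15.6 M reads (M, a factor of 10 to the power 6) lay on genes in the B cell libraries, 13.5 to 18.6 M in the total RNA fibroblast libraries and 11.3 and 12.8 M in the 4sU libraries. By the same estimate the values had been divided by 0.812 to 1.45 M, 17.0 to 17.3 M and 24.2 and 27.8 M reads in these sets, so the B cell and fibroblast scales differ and levels are compared only within each. Among the tumours, all labelled as B cells, replicate 3 went against that label: its 8 B cell identity genes summed to 1705 FPKM, against 18548 and 20097 FPKM in replicates 1 and 2, and its 8 T cell genes summed to 17721 FPKM, against 726 and 1477 FPKM. Salivary gland and exocrine pancreas genes summed to 2945 to 13642 FPKM in the tumours, against 29.7 to 35.8 FPKM in Tg_spleen and 46.0 to 137 FPKM in WT_spleen. The sums of 10 stromal and endothelial genes were 1106 to 1520 FPKM in tumours, 489.7 to 819 FPKM in Tg_spleen and 1038 to 1205 FPKM in WT_spleen. These sums hide a difference: by limma (adjusted p under 0.05), 7 of the 10 were called higher in tumours than in WT_spleen, beside 20.3% of all genes. Pecam1 alone was called lower, and the median log2 fold change of the 10 was 4.31. Lum, at 0 in every WT_spleen library, was tested only because it was high in tumours. In Tg_spleen against WT_spleen only 6 of the 10 passed the filter, so the same may hold for others of them. The part of all these marker genes in the results was not tested. Within Tg_spleen and within WT_spleen, 2 of the 4 libraries also held more RNA of Rpph1, a small non-coding RNA gene, than the other 2. The higher ones were at 545353 to 735331 FPKM and the lower ones at 153474 to 215865 FPKM. All 3 tumours, at 442640 to 608649 FPKM, lay nearer the higher ones, and the part of this difference in the tumour results was not tested. In the fibroblasts the 8 fibroblast identity genes summed to 298 to 385 FPKM, with none at 0 in every library, and the 8 B cell genes to at most 10.1 FPKM. Myc itself averaged 2020.4 ± 228 FPKM in tumours, 1556 ± 604 FPKM in Tg_spleen and 226 ± 34.7 FPKM in WT_spleen (SD, n = 3, 4 and 4). In fibroblasts the Myc row, which cannot separate the cells' own transcript from MycER, averaged 24.3 ± 3.98, 10.8 ± 2.84, 12.5 ± 2.20 and 9.78 ± 1.41 FPKM at 0, 4, 8 and 16 h (SD, n = 4 each). In these bulk samples, fewer cells of a type and less RNA per cell cannot be told apart.

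The promoters of the members were read because NRF1, GABPA and Myc act on promoters of known letter patterns, and 9 of the 10 members have an entry in the RefSeq table used (GRCm38.p6, a later build than the mm9 of the files). The window ran from 250 bases before to 50 after each start. Both strands were searched for CCGGAAG (the ETS core that GABPA binds), CACGTG (the E-box of Myc) and the consensus palindrome of NRF1 with 1 free base. CCGGAAG was found in 6 of 9 members, Tfam, Polrmt, Polg, Polg2, Ssbp1 and Gabpa itself, beside 8.86% of 32851 promoters of the same length. The NRF1 pattern was found in Polrmt only, as overlapping matches that begin 6 bases before and at the start, beside 4.60% of promoters. CACGTG was in none of the 9, beside 7.15% of promoters. A match is a description of these letters, and its absence says nothing of a factor. The 150 bases before the start are printed 5′ to 3′ on the gene's own strand for 4 members. These are members that the later results turn on or that carry the transcription start machinery. Matches to CCGGAAG, here read on either strand, are in capitals.
Tfam (chr10:71238045-71238194, minus strand): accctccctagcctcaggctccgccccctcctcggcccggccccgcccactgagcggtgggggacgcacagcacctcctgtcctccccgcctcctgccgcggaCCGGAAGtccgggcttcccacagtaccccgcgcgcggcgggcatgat
Polrmt (chr10:79746582-79746731, minus strand): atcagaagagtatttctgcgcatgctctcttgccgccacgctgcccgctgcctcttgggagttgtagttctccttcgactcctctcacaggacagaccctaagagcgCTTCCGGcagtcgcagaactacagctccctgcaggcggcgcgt
Tfb2m (chr1:179546277-179546426, minus strand): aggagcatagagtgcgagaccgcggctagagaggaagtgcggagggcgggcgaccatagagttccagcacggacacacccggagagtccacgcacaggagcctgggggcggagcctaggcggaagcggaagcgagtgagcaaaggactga
Polg2 (chr11:106779538-106779687, minus strand): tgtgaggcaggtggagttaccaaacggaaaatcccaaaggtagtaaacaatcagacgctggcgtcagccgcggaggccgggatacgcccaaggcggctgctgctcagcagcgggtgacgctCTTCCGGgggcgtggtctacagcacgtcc
The CCGGAAG match begins 47 bases before the start in Tfam, 43 in Polrmt and 29 in Polg2. No exact match to any of the 3 patterns lies in the Tfb2m window, the gene that was called together with Polg2 and Ppargc1b at 16 h in fibroblasts.

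Across wild-type B cells the members differed in level, in FPKM, by about an order of magnitude. Polg was at 359 ± 28.5 FPKM, Nrf1 at 326 ± 37.1 FPKM and Tfam at 267 ± 28.1 FPKM (SD, n = 4), and the libraries of each overlapped those of the next. Gabpa followed at 214 ± 12.2 FPKM. Ssbp1, Polrmt and Polg2 lay at 135 ± 12.2, 134 ± 14.7 and 128 ± 26.9 FPKM and did not differ beyond their spread. The 2 methyltransferase relatives were lower, Tfb1m at 82.7 ± 7.97 FPKM and Tfb2m at 55.8 ± 3.12 FPKM, and the coactivator Ppargc1b was the lowest member at 30.2 ± 7.58 FPKM. In untreated fibroblasts the order was another: Polg (35.9 ± 4.58 FPKM), Tfam (34.3 ± 5.68 FPKM), Polrmt (30.4 ± 4.82 FPKM) and Tfb2m (28.5 ± 2.06 FPKM) led and overlapped with their neighbours. Tfb1m and Gabpa, at 21.9 ± 4.52 and 21.3 ± 2.64 FPKM, came next. Ssbp1, at 16.1 ± 1.33 FPKM, Nrf1, at 12.2 ± 1.23 FPKM, and Polg2, at 9.35 ± 1.08 FPKM, had ranges that did not overlap each other, and Ppargc1b was again last at 0.963 ± 0.326 FPKM. By the same rough estimate, Ppargc1b rested on about 84 to 280 reads per B cell library and 48 to 239 per total RNA fibroblast library, and each other member on at least 90 reads in any library.

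Myc overexpression in B cells before tumours arose was addressed by Tg_spleen against WT_spleen. None of the 10 members passed the test (limma, adjusted p under 0.05 over all 14021 genes tested), while 27.9% of all genes did. At an unadjusted p under 0.05 it was also 0 of 10, beside 41.8% of genes. The members' median log2 fold change was 0.20, beside -0.045 over all genes, and in 8 of 10 members the estimate was positive. Every member's groups overlapped, whereas 31.6% of all genes had groups that did not.

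Among the transcription machinery, Tfb1m read 94.6, 83.2, 125 and 118 FPKM in Tg_spleen, against 78.8, 94, 82.3 and 75.8 FPKM in WT_spleen. Of the 4 transgenic values, 3 lay above all wild-type ones, and the log2 fold change was 0.33 ± 0.16 (SE), adjusted p 0.148. Tfb2m, the strand-opening factor, read 56, 71.2, 67.7 and 67.5 FPKM in Tg_spleen and 56.3, 55.6, 51.8 and 59.4 FPKM in WT_spleen, with the groups overlapping through 1 transgenic library (0.23 ± 0.14 (SE), adjusted p 0.242). For Tfam the interval of the difference was -0.13 to 0.46 on the log2 scale (estimate 0.16), and for Polrmt it was -0.23 to 0.45 (estimate 0.11; both 95%). In the copying machinery, Ssbp1 gave 0.24 ± 0.13 (SE), adjusted p 0.178. Polg and its accessory subunit Polg2 gave -0.052 (95% interval -0.37 to 0.27) and -0.073 (95% interval -0.54 to 0.39).

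The regulators did not pass either. Gabpa read 224, 239, 342 and 271 FPKM in Tg_spleen, against 230.4, 211, 201 and 212 FPKM in WT_spleen, with 1 transgenic library inside the wild-type range (0.31 ± 0.14 (SE), adjusted p 0.128). Ppargc1b read 50.3, 40, 49.9 and 31.3 FPKM in Tg_spleen and 35.4, 28.1, 36.9 and 20.4 FPKM in WT_spleen, with 1 transgenic library inside the wild-type range (0.51 ± 0.24 (SE), adjusted p 0.14). Nrf1 was close to even at 0.02 (95% interval -0.26 to 0.30). Split by Rpph1 content, the estimates differed: between the low-Rpph1 libraries (2 against 2) Tfb1m was at 0.61 and Gabpa at 0.56, and between the high-Rpph1 libraries (2 against 2) at 0.044 and 0.072. Ppargc1b was at 0.52 and 0.50 in the same splits, and no member passed in either.

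**Figure D1:**
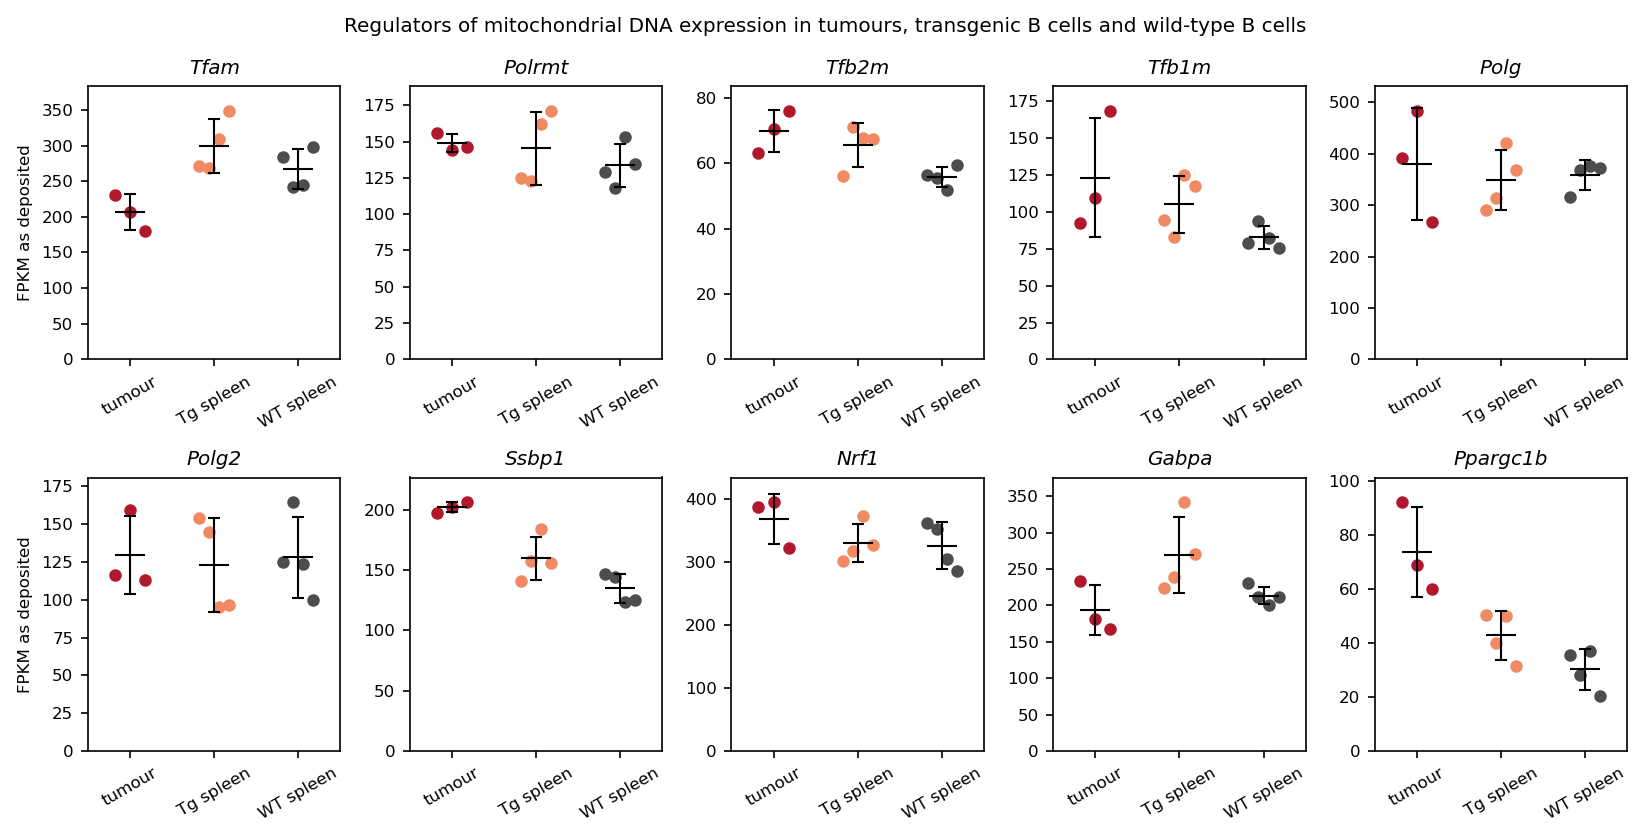
FPKM as deposited of each member (vertical axes, each from 0) in tumours (Tg_lymphnode, n = 3), transgenic B cells (Tg_spleen, n = 4) and wild-type B cells (WT_spleen, n = 4); points are libraries, horizontal marks means and bars SD. Ppargc1b and Ssbp1 lie highest in the tumours and Tfam lowest, while Polg2 and Nrf1 overlap in all groups.

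In tumours, Ppargc1b and Ssbp1 rose and no member was called lower. Called higher against WT_spleen were 2 of 10 members, a share close to the 20.3% of 14758 genes called higher, and 0 of 10 were called lower, beside 17.7% of genes. The members' median log2 fold change was 0.17, beside 0.049 over all genes. Ppargc1b read 92, 68.7 and 59.9 FPKM in tumours, against 35.4, 28.1, 36.9 and 20.4 FPKM in WT_spleen. Every tumour lay above every wild-type library, and the fold change was 2.43 (log2 1.28 ± 0.28 (SE), adjusted p 0.00875, limma). Ssbp1 read 198, 203 and 206 FPKM in tumours, against 147, 144, 124 and 125 FPKM in WT_spleen. The wild-type libraries at 147 and 144 FPKM held high Rpph1, as all 3 tumours did, and those at 124 and 125 FPKM held low Rpph1. Tumours against WT_spleen were not split by Rpph1. The 3 tumours were close together and all above the wild-type range, a log2 fold change of 0.59 ± 0.13 (SE), adjusted p 0.00954 (limma). Without tumour replicate 3, the library rich in T cell genes, both stayed called, Ppargc1b at 1.42 (adjusted p 0.0052) and Ssbp1 at 0.57 (adjusted p 0.0129).

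The remaining members did not pass in tumours. Tfam, the packaging and promoter factor, read 231, 207 and 181 FPKM in tumours and 285, 242, 244 and 298 FPKM in WT_spleen. All tumours were below all wild-type libraries, yet the test gave -0.37 ± 0.15 (SE), adjusted p 0.0763 (95% interval -0.71 to -0.038), and -0.28 (adjusted p 0.152) without replicate 3. Tfb2m read 63.1, 70.3 and 76 FPKM in tumours, above all of its wild-type values (0.32 ± 0.17 (SE), adjusted p 0.168). In all, 4 of 10 members had groups that did not overlap, Tfam, Tfb2m, Ssbp1 and Ppargc1b, beside 45.4% of all genes. Tfb1m read 92.2, 109 and 168 FPKM in tumours, with its highest value in replicate 3. Its log2 fold change against WT_spleen was 0.53 ± 0.22 (SE), adjusted p 0.0957, and 0.28 without replicate 3, while it passed without replicate 1 (log2 0.71, adjusted p 0.0405). Polg was uneven among tumours, at 391, 484 and 267 FPKM, with its lowest value in replicate 3. The 95% intervals for Polrmt (-0.16 to 0.48), Polg (-0.43 to 0.52), Polg2 (-0.46 to 0.50), Nrf1 (-0.16 to 0.52) and Gabpa (-0.50 to 0.19) held zero.

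Between tumours and Tg_spleen, the step from transgenic B cells to tumours, 0 of 10 members passed by limma, beside 5.95% of 14692 genes. At an unadjusted p under 0.05 it was 2, Tfam and Ppargc1b, beside 23.2% of genes. Tfam read 231, 207 and 181 FPKM in tumours, against 272, 269, 309.8 and 349 FPKM in Tg_spleen. The ranges did not overlap, with tumours lower (-0.54 ± 0.18 (SE), adjusted p 0.117). When all 3 B cell groups shared 1 fit, the same difference passed (adjusted p 0.0374). Ppargc1b and Ssbp1 were higher in every tumour than in every Tg_spleen library, at 0.77 ± 0.27 (SE), adjusted p 0.136 and 0.35 ± 0.16 (SE), adjusted p 0.245, and 3 of 10 members thus had groups that did not overlap, beside 22.4% of all genes. Gabpa read 233, 182 and 167 FPKM in tumours, against 224, 239, 342 and 271 FPKM in Tg_spleen, with 1 tumour inside the transgenic range (-0.47 ± 0.21 (SE), adjusted p 0.225). Both comparisons of tumours use the same 3 tumour libraries, and both comparisons with wild type the same 4 WT_spleen libraries, so their values are not independent.

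In fibroblasts after activation of MycER, Ppargc1b was called higher at 4, 8 and 16 h and Tfb2m and Polg2 at 16 h only. No member was called lower. The log2 fold changes at 4, 8 and 16 h were 0.44, 0.41 and 0.53 for Tfb2m and 0.63, 0.67 and 0.59 for Polg2. Being this alike, they give no order in time between these genes and Ppargc1b. Called higher were 1 of 10 members at 4 h, beside 1.9% of 12934 genes, 1 of 10 at 8 h, beside 1.21%, and 3 of 10 at 16 h, beside 1.76%. Called lower were 0 of 10 at each time, beside 2.88%, 0.982% and 7.75% of genes. The 3 comparisons share the 4 libraries at 0 h. The median of all genes was -0.042 at 4 h, -0.056 at 8 h and -0.14 at 16 h on the scale as deposited, and 0.034, 0.037 and 0.051 with median ratio scaling. With median ratio scaling the calls over all genes were 737 higher and 712 lower at 4 h (246 and 372 as deposited), 651 and 382 at 8 h (156 and 127 as deposited) and 977 and 937 at 16 h (228 and 1002 as deposited). With a block for the replicate number at 16 h, 349 genes were called higher and 1722 lower, and the same 3 members passed.

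Ppargc1b, the coactivator, read 1.45, 0.792, 0.870 and 0.745 FPKM at 0 h, 2.29, 2.23, 2.94 and 2.23 FPKM at 4 h, 2.84, 3.22, 2.85 and 2.17 FPKM at 8 h and 3.68, 2.22, 2.95 and 1.29 FPKM at 16 h. All 4 h and 8 h libraries were above all 0 h libraries, and at 16 h replicate 4 fell inside the 0 h range. The log2 fold changes, each over 0 h, were 1.02 ± 0.23 (SE), adjusted p 0.0112 at 4 h, 1.17 ± 0.23 (SE), adjusted p 0.00661 at 8 h and 1.01 ± 0.23 (SE), adjusted p 0.00692 at 16 h (limma). Since 1 of 4 libraries at 0 h and 12 of 12 after OHT reached the filter of 1 FPKM, the gene was tested only because it was high after OHT. With no filter it passed as well, with adjusted p 0.02, 0.0121 and 0.0121 at 4, 8 and 16 h. It passed in each of the 18 alternatives that tested it at each time, and a filter of 5 FPKM left it out. On the log2(FPKM + 0.5) scale the change of a gene this low is understated.

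Tfb2m, which opens the promoter for the mitochondrial polymerase, read 26.7, 28.4, 27.5 and 31.4 FPKM at 0 h, 38.8, 37.3, 45.8 and 34.4 FPKM at 4 h, 40.4, 36.3, 43.3 and 32.9 FPKM at 8 h and 54.1, 31.4, 47.4 and 36.0 FPKM at 16 h. The 4 h and 8 h libraries all lay above the 0 h range, and at 16 h replicate 2 lay just inside it. Its log2 fold change over 0 h was 0.44 ± 0.15 (SE), adjusted p 0.107 at 4 h, 0.41 ± 0.15 (SE), adjusted p 0.194 at 8 h and 0.53 ± 0.15 (SE), adjusted p 0.0303 at 16 h. The call at 16 h was lost without any 1 of OHT_0h replicates 1, 2 and 3 or OHT_16h replicates 1 and 3 (adjusted p up to 0.0852), while at 4 and 8 h the gene passed with median ratio scaling (adjusted p 0.0019 and 0.00328).

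Polg2, the accessory subunit of the copying polymerase, read 9.46, 10.4, 9.74 and 7.84 FPKM at 0 h, 14.6, 14.2, 18.2 and 12.4 FPKM at 4 h, 16.4, 13.1, 18.6 and 13.0 FPKM at 8 h and 20.9, 11.4, 14.4 and 12.1 FPKM at 16 h. Every library after OHT was above every library at 0 h. The log2 fold change over 0 h was 0.63 ± 0.19 (SE), adjusted p 0.0545 at 4 h, 0.67 ± 0.19 (SE), adjusted p 0.0639 at 8 h and 0.59 ± 0.19 (SE), adjusted p 0.0484 at 16 h. The call at 16 h was lost without any 1 of the 4 OHT_0h libraries or OHT_16h replicates 1, 3 and 4 (adjusted p up to 0.134), and with median ratio scaling the gene passed at 4 and 8 h (adjusted p 3.91e-04 and 2.43e-04). Relative to the median of all genes at 16 h, the differences were 0.67 for Tfb2m, 0.73 for Polg2 and 1.15 for Ppargc1b. Polg, the catalytic partner of Polg2, did not follow it: its 95% interval was -0.40 to 0.31 at 4 h and -0.43 to 0.27 at 16 h.

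**Figure D2:**
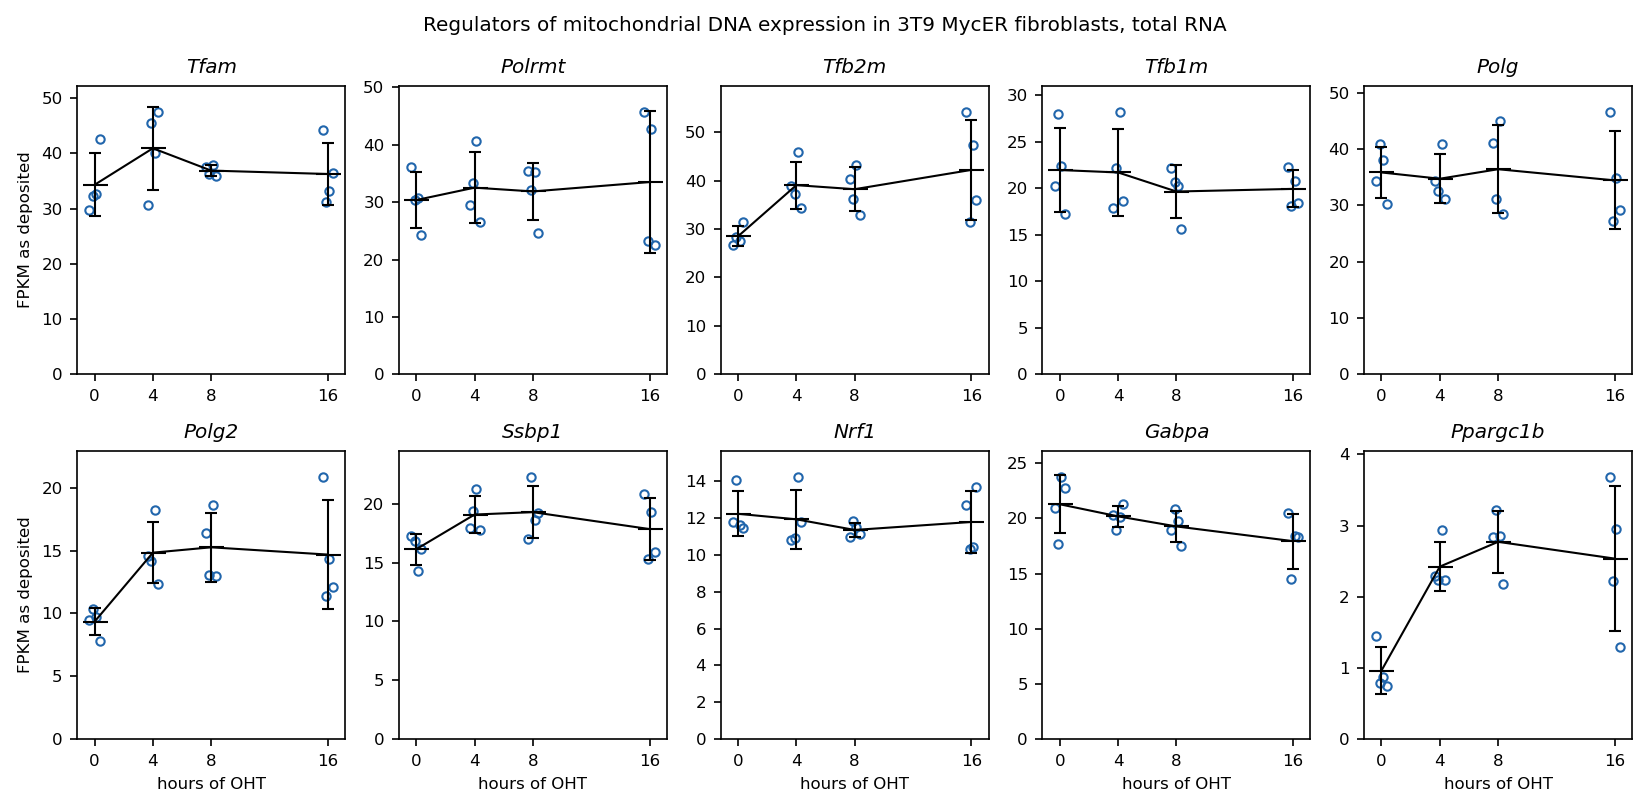
FPKM as deposited of each member (vertical axes, each from 0) in total RNA of 3T9 MycER fibroblasts at 0, 4, 8 and 16 h of OHT (horizontal axes); open points are libraries, 4 at each time, the line joins the means and bars are SD. Ppargc1b, Polg2 and Tfb2m stand higher at 4, 8 and 16 h than at 0 h, and Polrmt, Polg and Tfb2m spread more widely at 16 h than at 0 h.

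The other 7 members did not pass at any time in fibroblasts. Tfam read 29.7, 32.2, 32.7 and 42.6 FPKM at 0 h and 30.6, 45.5, 40.1 and 47.5 FPKM at 4 h. At 4 h, 2 of the 4 libraries lay above the 0 h range (0.24 ± 0.15 (SE), adjusted p 0.456). Ssbp1 read 17.3, 16.8, 14.3 and 16.2 FPKM at 0 h and 18.0, 19.4, 21.2 and 17.7 FPKM at 4 h, with the ranges apart (0.24 ± 0.14 (SE), adjusted p 0.442). Groups that did not overlap were thus found for 4 of 10 members at 4 h (Tfb2m, Polg2, Ssbp1 and Ppargc1b), beside 12.5% of all genes. At 8 h they were found for 3 (Tfb2m, Polg2 and Ppargc1b), beside 13%, and at 16 h for Polg2 alone, beside 13.8%. Gabpa estimates were -0.067, -0.13 and -0.24 at 4, 8 and 16 h (adjusted p 0.29 and 95% interval -0.52 to 0.037 at 16 h), those of Tfb1m -0.018, -0.15 and -0.12, and those of Nrf1 -0.038, -0.10 and -0.056. With median ratio scaling, the Gabpa estimate at 4 h was 0.01, that of Tfb1m 0.059 and that of Nrf1 0.038, so no direction is given for them. Polrmt spread widely at 16 h, at 45.7, 23.2, 42.7 and 22.5 FPKM, high in replicates 1 and 3 and low in 2 and 4 (0.078 ± 0.21 (SE), adjusted p 0.874). Of these libraries, OHT_16h replicates 2 and 4 had the lowest medians over all genes in their group. A setting added after the data were seen left out that replicate 2 and every library numbered 4. Polrmt then passed at 16 h (log2 0.45, adjusted p 0.0427), in 1 of 19 alternatives. This setting removes both low OHT_16h values of Polrmt, so the higher estimate follows from the choice of libraries.

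From 4 to 16 h no further change was detected. In OHT_16h against OHT_4h, limma called 0 of 10 members and 0 of 12934 genes (0%), with 0 members and 218 genes (1.69%) at an unadjusted p under 0.05. No member's groups were apart, beside 0.387% of genes. The 95% interval for Ppargc1b was -0.48 to 0.46, for Tfb2m -0.23 to 0.40 and for Polg2 -0.43 to 0.35 on the log2 scale.

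Whether the transgene in B cells and 4 h of MycER in fibroblasts moved a member differently was tested as a difference of the log2 fold changes. No member passed, beside 20.5% of 10996 genes (at an unadjusted p under 0.05, 1 member, Polg2, beside 33.1%). Polg2 came nearest, -0.073 in Tg_spleen over WT_spleen and 0.63 in OHT_4h over OHT_0h, a difference of -0.71 ± 0.28 (SE), adjusted p 0.0782. It passed with median ratio scaling (-0.76, adjusted p 0.0148), and without Tg_spleen replicate 2 (adjusted p 0.0319) or WT_spleen replicate 6 (adjusted p 0.0456). Ppargc1b differed by -0.51 (95% interval -1.22 to 0.21) and Tfb2m by -0.22 (95% interval -0.64 to 0.21).

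**Figure D3:**
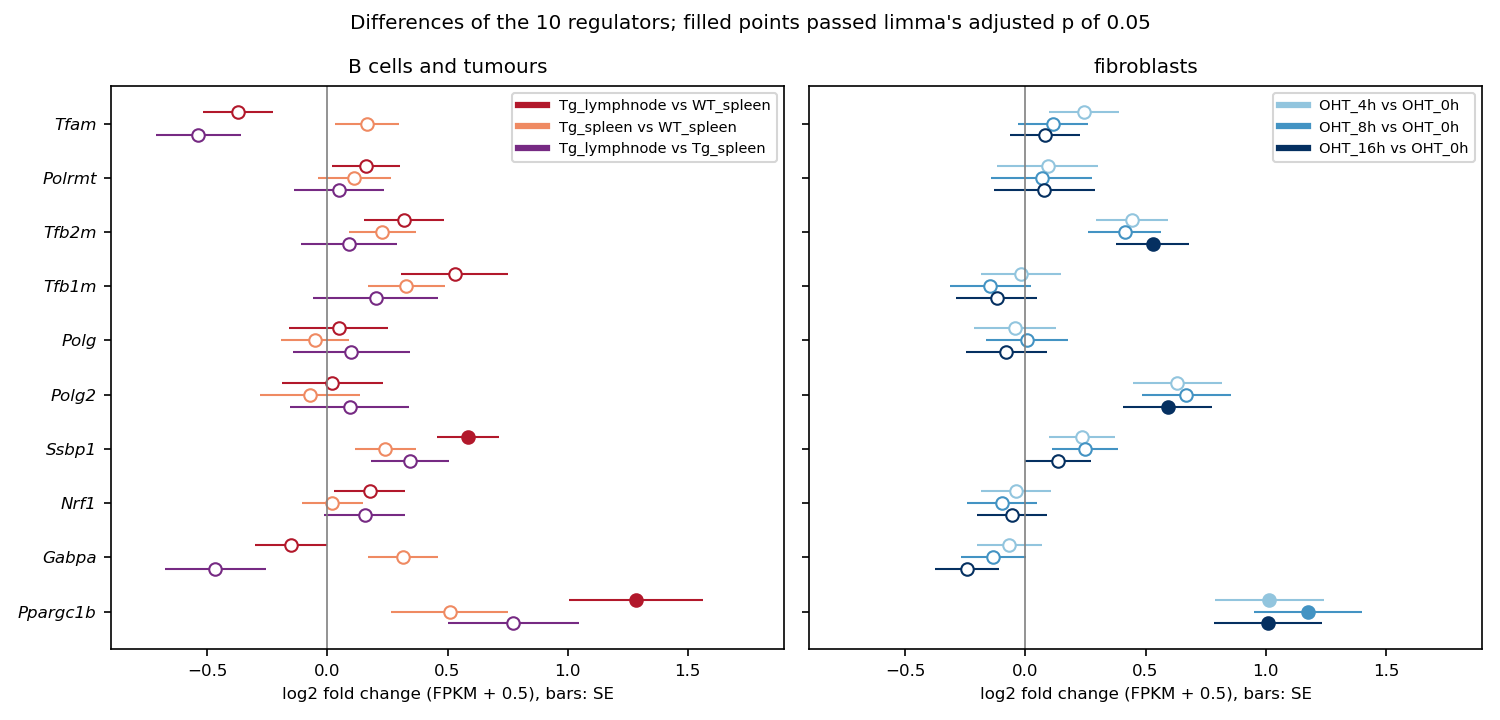
Log2 fold change of FPKM + 0.5 (horizontal axis) of each member in 3 B cell comparisons (left) and 3 fibroblast comparisons (right), as limma estimates with bars of 1 SE; filled points had an adjusted p under 0.05. Ppargc1b lies farthest right in both panels, Polg2 and Tfb2m follow it in fibroblasts with filled points at 16 h only, and Tfam and Gabpa lie left of zero in tumours.

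Newly made RNA, caught by 10 min of 4sU labelling, gave 1 library at each time and therefore no test. The ratio of 4 h to 0 h, on FPKM + 0.5, was past 1.5-fold for 3 of 10 members, all higher, beside 4.83% of 12375 genes higher by that much and 8.36% past it either way. Ppargc1b reached the filter of 1 FPKM only in the 4 h library, so it was counted and ranked only because it was high after OHT, while Polg2 and Tfb2m passed the filter at both times. Ppargc1b was at 3.55 FPKM at 4 h and 0.923 FPKM at 0 h, a ratio of 2.85, larger than that of 99.8% of genes. Polg2 was at 8.95 and 5.24 FPKM at 4 and 0 h, a ratio of 1.65. Tfb2m was at 14.1 and 8.60 FPKM at 4 and 0 h, a ratio of 1.60. These are the 3 members with the highest estimates in total RNA at 4 h. Tfam followed with a ratio of 1.29, then Polrmt with 1.19 and Ssbp1 with 1.18. Gabpa (1.05), Tfb1m (0.923), Polg (0.894) and Nrf1 (0.872) lay near or below even, and the median gene was at log2 0.024.

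**Figure D4:**
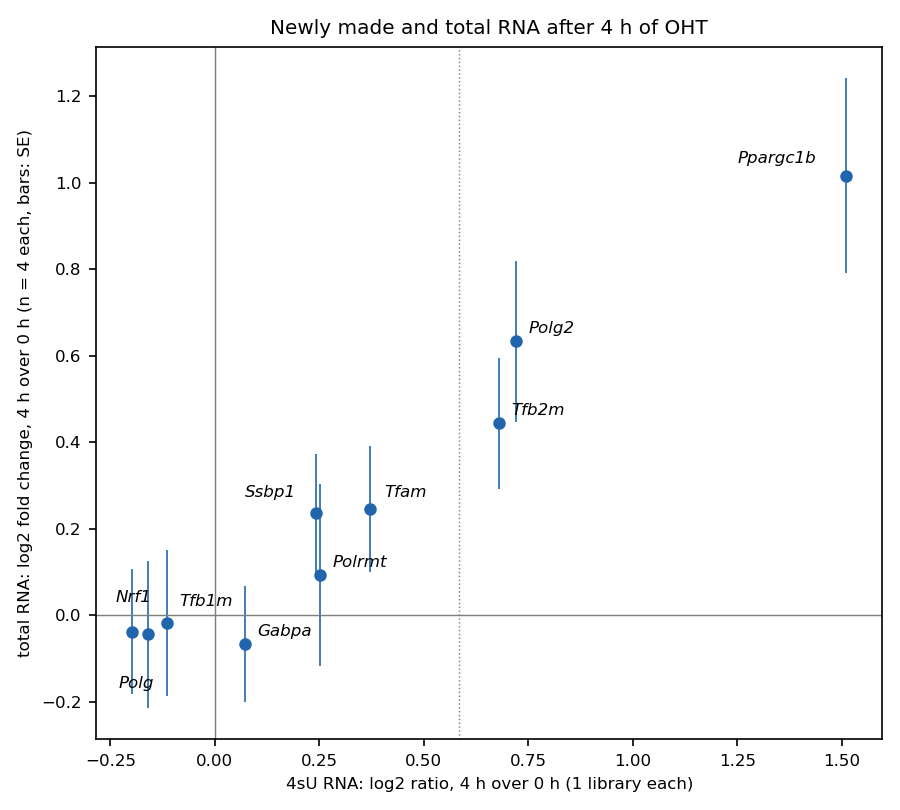
Log2 ratio of newly made (4sU) RNA at 4 h over 0 h, 1 library each (horizontal axis), against the log2 fold change of total RNA at 4 h over 0 h with its SE, 4 libraries each (vertical axis), for the 10 members; the dotted line marks 1.5-fold. Tfb2m, Polg2 and Ppargc1b lie right of the line and highest in total RNA.

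The ratio of newly made to total RNA at one time is only a rough guide to how much of a gene's RNA is recent, relative to other genes. The 4sU libraries top out at 85.2 to 87.8 FPKM and the total RNA libraries at 139 to 201 FPKM. Whether this difference between the 2 kinds of library moved the ratios was not tested. Each ratio is given as the log2 ratio of the 4sU library to the mean of the 4 total RNA libraries, minus the median over all genes, with no test. At 0 h, 5 of the 9 members above the filter lay above that median, as 50% of genes do by construction. Nrf1 was highest at 1.34, followed by Ssbp1 at 1.05 and Gabpa at 0.48. The transcription machinery was on the low side, with Polrmt at -0.86, Tfb1m at -0.67, Tfam at -0.66 and Tfb2m at -0.53. At 4 h the order was alike, 5 of 10 members lay above the median, and Ppargc1b, below the filter of 1 FPKM at 0 h, was at 1.52.

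Members of the same machinery did not all vary together. Over the 16 total RNA fibroblast libraries, log2 values of Tfb2m and Polg2 had a Pearson correlation of 0.889, Polg2 and Ppargc1b one of 0.856 and Tfb2m and Ppargc1b one of 0.792. Those libraries share the OHT times and the differences in depth. Over the 11 B cell libraries, which share the 3 groups, Ssbp1 and Ppargc1b had one of 0.810 and Tfam and Gabpa one of 0.797. Polrmt and Polg2 ran opposite there, at -0.716. In Tg_spleen, Polrmt read 125 and 123 FPKM in the high-Rpph1 libraries and 162 and 171 FPKM in the low-Rpph1 ones. Polg2 read 154 and 145 FPKM in the same high-Rpph1 libraries and 95.4 and 96.7 FPKM in the low-Rpph1 ones. In WT_spleen, in the same order, Polrmt read 128.8 and 117.8, then 153 and 134.5 FPKM, and Polg2 124.9 and 164.4, then 123.4 and 99.5 FPKM. The part of Rpph1 content in these correlations was not tested. Among all genes with a mean of at least 5 FPKM, the 3 most like Tfam in fibroblasts by Pearson correlation were Utp15 (0.987), E2f5 (0.986) and Utp6 (0.983; n = 16). Those most like Polg2 were Limk1 (0.978), Lrrc73 (0.977) and Adi1 (0.976). Those most like Tfb2m were Ccdc137 (0.981), Gng12 (0.976) and Ccdc107 (0.974). For Ppargc1b they were Arhgap39 (0.964), Rsad1 (0.951) and Tmem158 (0.941). In B cells (n = 11) the gene most like Tfb2m was Rnaseh1 (0.934), which removes RNA from RNA-DNA hybrids also in mitochondria. The one most like Polg was Top3a (0.938), a topoisomerase that also acts on mitochondrial DNA. Next came Gm4535 (0.931) and Cmtm4 (0.923) for Tfb2m, and Scrib (0.929) and Mybpc2 (0.921) for Polg. Each is among the highest of 11968 genes compared, with no test. Of the other members in B cells, Ssbp1 was nearest to Prelid2 (0.967), Ppargc1b to Omd (0.962), Tfam to Fam107b (0.970) and Polrmt to Tecr (0.938). Tfb1m was nearest to Tmtc4 (0.938), Polg2 to Tor3a (0.920), Nrf1 to Mdk (0.885) and Gabpa to Smarca5 (0.956).

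Around the members, genes that work with them were counted by list. These counts stand beside 20.3% of all genes called higher and 17.7% called lower in tumours against WT_spleen, and 15.7% higher and 12.2% lower in Tg_spleen against WT_spleen. Marker genes of other cells also differed in Tg_spleen without overlap: 8 T cell genes summed to 285.8 to 496.5 FPKM in Tg_spleen and 607 to 792 FPKM in WT_spleen, the NK cell genes to 51 to 381 FPKM in Tg_spleen and 422 to 760 FPKM in WT_spleen, and the 8 B cell identity genes to 24394 to 36721 FPKM in Tg_spleen and 38005 to 42457 FPKM in WT_spleen. Their part in the list counts was not tested. With a block for the replicate number, 575 genes were called higher and 265 lower in Tg_spleen against WT_spleen. The list counts in Tg_spleen then fell, except for the transcription partners, as given in the closing section. The partners in mitochondrial transcription, such as the elongation factor Tefm and the termination factor family, came first. In tumours and in Tg_spleen, both against WT_spleen, 1 of 5 tested was called higher, a share near those of all genes. It was Mrpl12, a ribosomal protein also known to bind POLRMT. Mrpl12 was at 890.0 ± 154 FPKM in tumours and 664 ± 189.6 FPKM in Tg_spleen, against 247 ± 36.6 FPKM in WT_spleen (SD; log2 1.84 ± 0.18 (SE), adjusted p 2.70e-04 in tumours, and 1.39 ± 0.21 (SE), adjusted p 0.00351 in Tg_spleen). In fibroblasts 0 of 6 passed at any time.

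The partners in mitochondrial DNA replication and repair, many of which also act on nuclear DNA, were called higher for 9 of 14 and lower for 1 in tumours, and higher for 7 and lower for 1 in Tg_spleen. The list's median log2 fold change was 0.87 in tumours, beside 0.049 over all genes, and 0.61 in Tg_spleen, beside -0.045. Apex1, a base excision repair nuclease, was at 294 ± 25.3 FPKM in tumours and 236 ± 60.6 FPKM in Tg_spleen, against 107 ± 8.92 FPKM in WT_spleen. Peo1, the mitochondrial helicase Twinkle, was at 126 ± 24.9 FPKM in Tg_spleen, against 65.7 ± 10.9 FPKM in WT_spleen (log2 0.93 ± 0.18 (SE), adjusted p 0.00706). Dna2, a nuclease and helicase, differed there by 1.69 and Top1mt by 0.76 (log2). Ccdc111, the primase PrimPol, was the 1 called lower there and in tumours. Top1mt, the mitochondrial topoisomerase, was also called higher in fibroblasts, at 54.9 ± 5.26 FPKM at 4 h, against 32.7 ± 1.93 FPKM at 0 h (log2 0.74 ± 0.10 (SE), adjusted p 2.31e-04), and at 8 and 16 h. Of 15 partners tested in fibroblasts, 2 were called higher at 4 h (Top1mt and Dna2), 1 at 8 h and 1 at 16 h, where Ccdc111 was lower. With median ratio scaling it was 3 higher at 4 h, 3 at 8 h and 4 at 16 h.

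Genes of mitochondrial RNA processing, modification and decay were called higher for 14 of 32 in tumours, with 1 lower (Nsun4), and for 15 of 32 in Tg_spleen, with 0 lower. The list medians were 0.49 in tumours, beside 0.049 over all genes, and 0.41 in Tg_spleen, beside -0.045. Ptcd3 was at 614 ± 54.2 FPKM in tumours and 552 ± 64.2 FPKM in Tg_spleen, against 342 ± 28.0 FPKM in WT_spleen. Trmt5 and Pus1, which modify transfer RNA, differed by 0.57 and 0.89 in Tg_spleen, and Tbrg4 by 1.27 in tumours. In fibroblasts 1 of 33 passed at 4 h (Fastkd3, 0.53 ± 0.14 (SE), adjusted p 0.0349) and 0 at 8 and 16 h, although with median ratio scaling it was 4 at 4 h, 3 at 8 h and 8 at 16 h. Of cytochrome c and the nuclear subunits of complex IV, whose partner subunits mitochondrial DNA encodes, 8 of 12 were called higher in tumours, with a median of 0.998, and 9 of 12 in Tg_spleen, with a median of 0.77. Cox5a was at 864 ± 179 FPKM in tumours and 902 ± 193 FPKM in Tg_spleen, against 414 ± 57.9 FPKM in WT_spleen. In fibroblasts 0 of 12 passed at 4, 8 or 16 h. The difference between Tg_spleen over WT_spleen and OHT_4h over OHT_0h was itself called for 11 of 12, all positive. Over all genes, 20.5% of 10996 were called either way, 1725 of them positive. The fibroblast total RNA files top out at 139 to 201 FPKM, and whether high values are compressed there was not tested. Within the Rpph1 split of Tg_spleen against WT_spleen, cytochrome c and complex IV genes were called for 7 of 12 in the low-Rpph1 libraries and 1 of 12 in the high-Rpph1 libraries, with medians of 1.12 and 0.47. The shares of all genes called in that split are not given here.

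The nucleoid and nucleotide supply list went both ways. In tumours 6 of 18 were called higher and 5 lower, and in Tg_spleen 7 were higher and 2 lower. Hspd1, a mitochondrial chaperonin, was at 1219 ± 208 FPKM in tumours and 975 ± 342 FPKM in Tg_spleen, against 294 ± 33.1 FPKM in WT_spleen. Tk2, the mitochondrial thymidine kinase, was lower, at 85.9 ± 24.9 FPKM in tumours and 192 ± 22.1 FPKM in Tg_spleen, against 357 ± 30.7 FPKM in WT_spleen. Samhd1, which breaks down deoxynucleotides, fell by 1.58 on the log2 scale in tumours. In fibroblasts 1 of 18 passed at 4 h and at 16 h, Slc25a33, a pyrimidine nucleotide carrier (0.55 and 0.55), and with median ratio scaling it was 2 at 4 h, 1 at 8 h and 2 at 16 h.

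The nuclear co-regulators, relatives and partners of Ppargc1b and the respiratory factors, went the other way from Ppargc1b in tumours: 7 of 12 were called lower and 0 higher, with a list median of -0.61, beside 0.049 over all genes. In Tg_spleen 4 of 13 were lower and 0 higher. Ppargc1a, the closest relative of Ppargc1b, was at 0.733 ± 0.751 FPKM in tumours and 4.55 ± 1.39 FPKM in Tg_spleen, against 10.2 ± 2.23 FPKM in WT_spleen (log2 -1.11 ± 0.31 (SE), adjusted p 0.0256 in Tg_spleen), and in tumours 1 of 3 libraries reached the filter of 1 FPKM. Esrra, a nuclear receptor partner of both coactivators, was at 96.2 ± 21.0 FPKM in tumours and 122 ± 17.7 FPKM in Tg_spleen, against 182 ± 19.4 FPKM in WT_spleen. Pparg was at 7.00 ± 2.80 FPKM in tumours, against 42.0 ± 12.9 FPKM in WT_spleen, and was the 1 co-regulator called lower in tumours against Tg_spleen. Of 9 macrophage and monocyte genes, 7 were called lower and 1 higher in tumours, with sums of 2479 to 5543 FPKM in tumours and 4017 to 7558 FPKM in WT_spleen, and their part in these differences was not tested. In fibroblasts 0 of 10 co-regulators passed at any time, and 1 at 4 h with median ratio scaling. Without tumour replicate 3, the counts in tumours were 8 higher of 14 for replication and repair, 16 higher of 32 for RNA processing, 8 higher of 12 for complex IV and 6 lower and 1 higher of 13 for the co-regulators. Over all genes, that fit called 3466 higher and 3189 lower, against 2997 and 2619 with replicate 3.

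**Figure D5:**
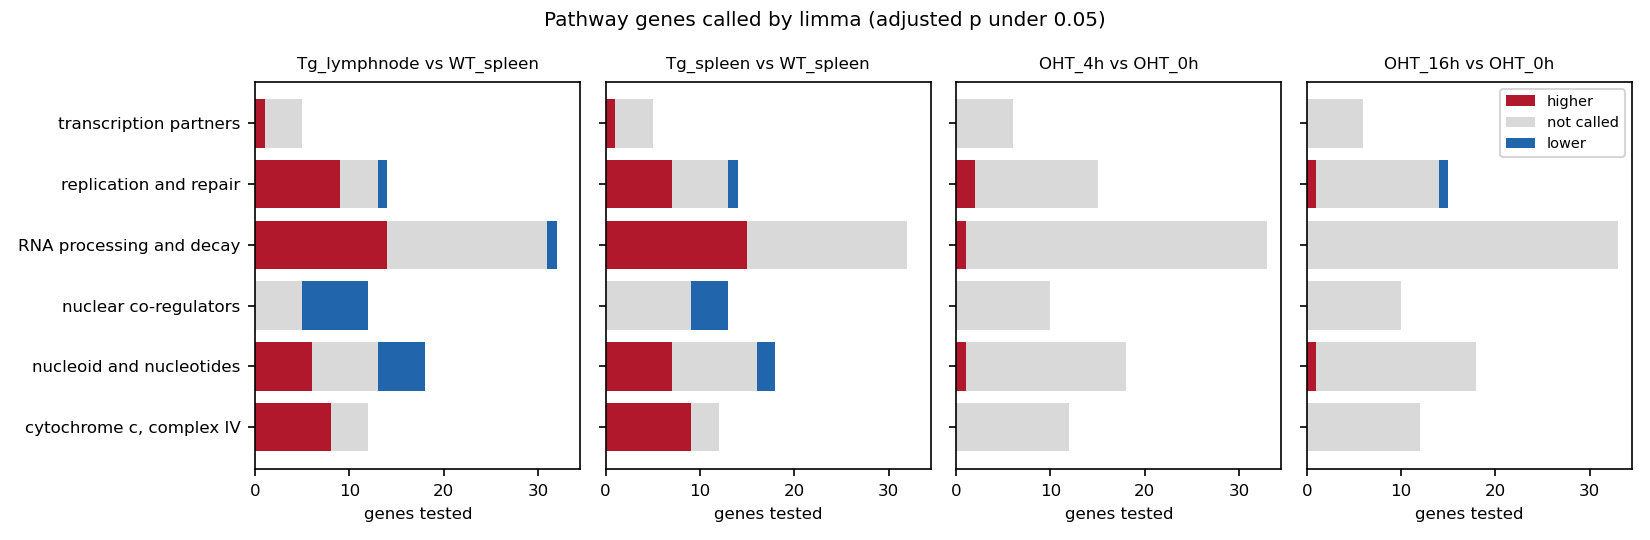
Number of genes tested in each pathway list (horizontal axis) that limma called higher, did not call or called lower at an adjusted p under 0.05, in tumours and Tg_spleen against WT_spleen and in fibroblasts at 4 and 16 h of OHT against 0 h. Red bars are long for replication and repair, RNA processing and complex IV in the B cell panels, the co-regulators' called genes are all blue (lower), beside grey ones not called, and the fibroblast panels are almost all grey.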

How the data were processed

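RNA values of 11 B cell and tumour libraries and 18 fibroblast libraries were read from the deposited files. Per the file headers, the authors' values are FPKM per gene, on separate scales for B cells and fibroblasts. Per the submitters' processing notes, the build was mm9, and HTSeq 0.5.3p9, SAMtools, TopHat and TopHat2 2.0.8 are named without their roles. Annotation, duplicate handling and the origin of each scale are not given in the sources used here. The fibroblast files top out at 139 to 201 FPKM in total RNA, and whether high values are compressed was not tested. No file holds counts. Read numbers were roughly estimated from the spacing of low values and gene lengths of GENCODE vM21, on a spacing score of 1 if every value were a whole number of reads and 0 if none; the libraries reached 0.209 to 0.504.

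Values were taken as log2(FPKM + 0.5), and fold changes are on that scale. The test was run on genes reaching 1 FPKM in 4 or more libraries (3 or more where tumours entered), using limma 3.58.1 in R 4.3.3 (trend and robust), two-sided, with Benjamini-Hochberg adjustment over all genes tested. The fits held the 2 groups compared for B cells and all 16 total RNA libraries for fibroblasts, and the difference between both systems was a contrast in 1 fit of the 8 spleen and 16 total RNA fibroblast libraries. The procedure was checked on simulated data. With 4sU (1 library a time) no test was made. Same-numbered libraries at 16 and 0 h deviated together in all 4 pairs (correlations of 0.108 to 0.560), so the replicate block is printed there. Differently numbered libraries at these times had correlations of -0.450 to 0.473, so the number does not clearly mark a pairing. The block is also printed for Tg_spleen against WT_spleen, where the 2 same-numbered pairs had 0.118 and 0.174, within the range of the others. Alternatives were other pseudocounts, filters and scalings, a replicate block, other fits and each library left out. The members and lists were chosen with earlier results of these data known. All members and Myc are named, and of each list up to 4 called genes a comparison with the smallest adjusted p. Ccdc111 and Nsun4, outside that rule, were named after their values were seen, as single genes called lower. For likeness, the 3 genes with the highest Pearson correlation were taken. They are given for the members the text turns on in fibroblasts, and in B cells the nearest gene is given for every member. Python 3.11.15, NumPy 2.4.6, pandas 2.3.3 and Matplotlib 3.10.9 were used. Promoter sequences are RefSeq's, GRCm38.p6. Ppargc1b has no entry in that table.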

Additional observations from a re-analysis of the deposited data

Results flagged for a closer look

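Of 60 groups of 4 libraries tested for 1 member each, 3 held a library far from the other 3, about the 1 in 20 that chance gives. Ppargc1b read 2.935 FPKM in OHT_4h replicate 3, against 2.232 to 2.29 FPKM in the other OHT_4h libraries. Nrf1 read 14.064 FPKM in OHT_0h replicate 2, against 11.467 to 11.764 FPKM in the others. Polg read 316.2 FPKM in WT_spleen replicate 1, against 369.5 to 377.2 FPKM in the others. Without OHT_4h replicate 3, Ppargc1b was still called at 4 h. Nrf1 and Polg were not called with or without these libraries.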

How the results depend on the processing

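Members called moved with the setting as follows. At OHT_4h against OHT_0h (1 in the report) there were 3 with median ratio scaling, 3 with quantile normalization, 3 with the replicate block, 3 when only the 2 times were fitted, and 0 with a filter of 5 FPKM, which leaves Ppargc1b out. At 8 h (1 in the report) the same settings gave 3, 3, 2, 2 and 0. Calls over all genes rose too. At 4 h they went from 246 higher and 372 lower to 737 and 712 with median ratio scaling, 882 and 886 with quantile normalization and 408 and 697 with the block. At 8 h they went from 156 and 127 to 651 and 382, 682 and 471, and 313 and 416 in the same order. At 16 h (3 in the report) there was 1 with no filter and 1 when only the 2 times were fitted. In Tg_lymphnode against WT_spleen (2 in the report) the replicate block left 0, with 0 of all genes called. In Tg_lymphnode against Tg_spleen (0 in the report) there was 1 when all 3 B cell groups were fitted together. For the difference between Tg_spleen over WT_spleen and OHT_4h over OHT_0h (0 in the report) there was 1 with median ratio scaling and 1 with quantile normalization. Settings added after the data were seen left out the libraries numbered 4, which gave 3 at 4 h, or those and OHT_16h replicate 2, which gave 3 at 4 h and 3 at 8 h. Median ratio scaling with the replicate block, also added, gave 5 at 4 h and 4 at 8 h. Over all 12849 genes it called 1290 higher and 1155 lower at 4 h and 1121 and 707 at 8 h. With each library left out in turn, the counts were 0 to 0 in Tg_spleen against WT_spleen, 2 to 3 and 0 to 0 in tumours against WT_spleen and Tg_spleen, 1 to 2, 1 to 1 and 1 to 3 at 4, 8 and 16 h, 0 to 0 at 16 against 4 h and 0 to 1 for the difference of differences. The counts for 4sU stayed within 1.5 times of those in the report.

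Of 1455 member values under an alternative, 1400 kept their side of the threshold, 36 passed newly and 19 no longer passed; no called value changed sign, and 148 values that were not called did. The cause was not tested. Over all genes, the replicate block left 575 higher and 265 lower in Tg_spleen against WT_spleen (2206 and 1712 in the report). The 2 same-numbered pairs of these groups had correlations of 0.118 and 0.174, while differently numbered pairs ranged from -0.179 to 0.293. The labels do not say what a shared number means. With that block the calls in Tg_spleen were 1 higher and 0 lower of 14 for replication and repair (7 and 1 in the report), 0 of 32 for RNA processing, 0 of 12 for complex IV, 2 higher and 1 lower of 18 for the nucleoid list (7 and 2), 0 of 13 for the co-regulators (4 lower) and 1 of 5, as in the report, for the transcription partners. In fibroblasts the calls over all genes ranged from 145 to 1290 higher and 116 to 1385 lower at 4 h, 90 to 1121 and 48 to 707 at 8 h, and 155 to 1647 and 440 to 1873 at 16 h. Under the block the members called were Ppargc1b, Tfb2m and Polg2 at 4 h and Ppargc1b and Polg2 at 8 h, where the lowest correlation of a same-numbered pair was 0.0779 (4 h) and 0.0105 (8 h). Quantile normalization turned the split of calls in Tg_lymphnode against Tg_spleen to 353 higher and 370 lower, from 523 and 351, and gave 1728 and 1331 for the difference of differences, from 1725 and 532. Ppargc1b, the member with the lowest level, rested on the fewest reads, roughly 48 in OHT_0h replicate 4.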
